A study of Homo sapiens with 6 samples.

Results

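Classical cadherins and the catenins that bind them were followed as 10 genes chosen by symbol from the 20356 genes of the series table: the cadherin genes CDH1, CDH2, CDH3, CDH5, CDH6, CDH11 and CDH13, and the catenin genes CTNNA1, CTNNB1 and CTNND1. All 10 were found, each on 1 row. RNA was sequenced in 6 libraries of H1975 cells, which come from a human lung adenocarcinoma that carries mutant EGFR. The 3 libraries of osimertinib-resistant cells (H1975 OR) came from cells given 1 µM osimertinib, an inhibitor of mutant EGFR, and the 3 libraries of parental H1975 came from cells without the drug treatment; the design text calls them biological replicates. Both were grown in RPMI-1640 medium with serum. The comparison asked which genes differed after resistance had developed. H1975 OR is the only resistant line here and was always given the drug, so acquired resistance and exposure cannot be told apart.

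Cadherins are calcium-dependent adhesion molecules of the cell surface. In the classical ones the extracellular repeats bind a cadherin on the neighbouring cell, while the cytoplasmic tail binds p120-catenin (CTNND1) near the membrane and beta-catenin (CTNNB1) farther out. Alpha-catenin (CTNNA1) joins beta-catenin to actin. Beta-catenin that is not held at junctions or degraded can enter the nucleus and act with TCF and LEF factors in WNT signalling. E-cadherin is the main cadherin of airway and alveolar epithelium, and a change from E-cadherin to mesenchymal cadherins is a well-known feature of the epithelial to mesenchymal transition.

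The deposited values were FPKM, which divide fragments by gene length and library total. Levels of different genes may be set side by side only as far as the lengths used are right. A gene entered the limma fit on log2(FPKM + 1) if 1 group or both averaged 1 FPKM or more, and an adjusted p under 0.05 (Benjamini-Hochberg over all genes tested) was counted as a change. Of 12107 genes tested, 9448 passed, which is 78.0% (39.9% higher and 38.1% lower in resistant cells). From 11410 to 11555 genes were at 1 FPKM or more, depending on the library. Depth in reads is unknown. The p-values measure the spread between the 3 libraries of each line. Among 10 markers of lung epithelium the 6 that were tested were all lower in resistant cells, among them the lineage factor gene NKX2-1, which was listed at 0 in each resistant library. The surfactant genes SFTPB, SFTPC and SFTPA1 were at or near 0 in both groups.

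Of the 10 members 7 were tested. Of these, 2 rose, 4 fell and 1 did not pass. The share that passed is close to the 78.0% of all genes and is no result about the family. The same 6 members had groups that did not overlap (2 above and 4 below), where 79.8% of all tested genes had none (40.8% above and 39.0% below). Past 1 on the log2 scale CDH11 rose, and CDH1 and CDH3 fell, against 9.95% of genes higher and 9.39% lower by that much. CDH1 and CDH3 entered the test through the parental libraries alone, and CDH5 and CDH11 through the resistant libraries alone, so a difference in these 4 followed in part from the filter. CDH2, CDH6 and CDH13 stayed under 1 FPKM in every library and were not tested.

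**Figure D1:**
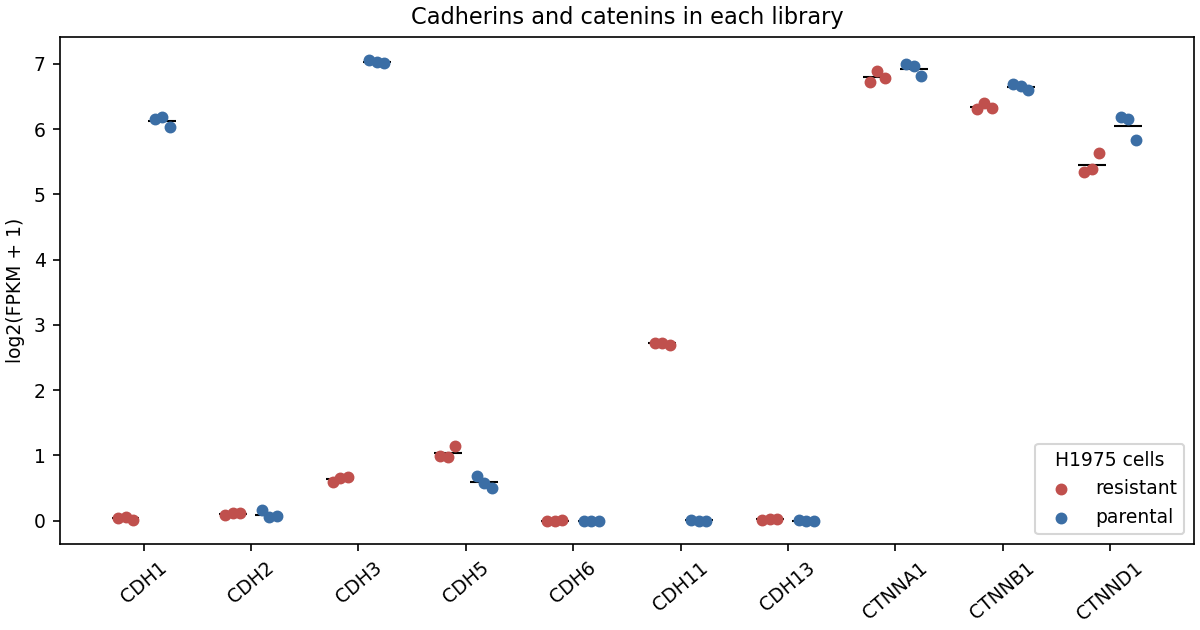
Level of each of the 10 genes in each library, as log2(FPKM + 1), with resistant libraries in red, parental libraries in blue and the group mean as a line. CDH1 and CDH3 were high in parental libraries only, CDH11 was raised in resistant libraries only, and the 3 catenins were high in both groups.

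CDH1 encodes E-cadherin (GRCh37, 16:68771128-68869451, plus strand). It was listed at 0.0293, 0.0354 and 0.00965 FPKM in resistant replicates 1 to 3, against 70.0, 71.4 and 64.4 FPKM in parental replicates 1 to 3. The parental libraries were close to each other, and every resistant library was near 0. The mean was 0.0248 ± 0.0135 FPKM in resistant cells and 68.6 ± 3.72 FPKM in parental cells (SD, n = 3 each). The log2 fold change was -6.08 ± 0.0642 (SE, limma adjusted p = 6.1e-15). In bulk RNA fewer cells with the transcript and less of it per cell cannot be told apart.

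CDH3 encodes P-cadherin, a classical cadherin of basal epithelial cells and placenta (16:68670092-68756519, plus strand). It was at 0.508, 0.567 and 0.586 FPKM in resistant replicates 1 to 3, against 133, 129 and 129 FPKM in parental replicates 1 to 3. P-cadherin mRNA was thus the more abundant of the pair in every library of either group, and low but measurable in resistant cells. Its log2 fold change was -6.40 ± 0.0576 (SE, limma adjusted p = 2.7e-15). Which of the pair fell by more depended on the scale: with a pseudocount of 0.1 the log2 fold change was -9.11 for CDH1 and -7.64 for CDH3, and on TPM it was -7.21 for CDH1 and -7.02 for CDH3. The ratio of CDH3 to CDH1 FPKM was 17.3, 16.01 and 60.8 in resistant replicates 1 to 3, against 1.90, 1.81 and 1.999 in parental ones. The highest value, in resistant replicate 3, goes with the lowest CDH1 level.

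CDH11 encodes OB-cadherin, a type II cadherin of mesenchymal cells and osteoblasts (16:64977656-65160015, minus strand). It was at 5.62, 5.62 and 5.49 FPKM in resistant replicates 1 to 3, against 0.00847, 0 and 0 FPKM in parental replicates 1 to 3. The groups did not overlap, and the resistant libraries differed from each other by little. The log2 fold change was 2.71 ± 0.0663 (SE, limma adjusted p = 2.8e-12) and was 5.79 with a pseudocount of 0.1, since the parental level lay near 0. In deposited FPKM CDH11 was the highest of the 7 cadherins in resistant cells, though below CDH24, a cadherin outside these 7. Its level was well under that of CDH1 or CDH3 in parental cells. Of 10 fibroblast markers 2 were tested, COL1A1 (log2 fold change 2.28) and PDGFRB (2.24), and both rose. PDGFRB entered the test through the resistant libraries alone, so its rise followed in part from the filter. The other 8 were under 1 FPKM in every library, with DCN at 0 in all. In DCN, PDGFRA, FAP and POSTN the groups overlapped. In COL1A2, COL3A1, LUM and THY1 every resistant library lay above every parental one. The list summed to 18.1 to 22.04 FPKM in resistant libraries and 2.44 to 2.97 FPKM in parental libraries. Its part in the CDH11 result was not tested. Of 6 leukocyte markers 2 were tested and rose, CD14 (2.93) and CD68 (1.02). Of 4 mesothelium markers 1 was tested and rose, CALB2 (0.835). Over all tested genes 39.9% were higher, and 40.8% had every resistant library above every parental one. No such share was computed for genes too low to test.

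CDH5 encodes VE-cadherin, the cadherin of endothelial junctions (16:66400533-66438686, plus strand). It was at 0.994, 0.973 and 1.22 FPKM in resistant replicates 1 to 3, against 0.608, 0.487 and 0.415 FPKM in parental replicates 1 to 3. The groups did not overlap, but all values lay near the level required for testing. The log2 fold change was 0.46 ± 0.0790 (SE, limma adjusted p = 0.00018). It was 0.95 with a pseudocount of 0.1 and 0.70 on TPM, and without resistant replicate 3 the gene fell under the level tested. Of 12 matched endothelial markers 10 stayed under 1 FPKM in every library. EMCN was at 0 in all, and VWF, TEK and FLT1 were at or near 0. Among the low ones CD34, ESAM, TIE1 and ERG had every resistant library above every parental one, as CDH5 did. TIE1 and ERG were also near 0. In KDR, CLDN5, VWF, TEK, FLT1 and EMCN the groups overlapped. KDR averaged 0.12 FPKM in resistant cells and 0.19 FPKM in parental cells. Over all tested genes 40.8% had every resistant library above every parental one, a share not computed for genes too low to test. CD34 averaged 0.804 FPKM in resistant cells and 0.00952 FPKM in parental cells, and ESAM 0.655 FPKM in resistant cells and 0.196 FPKM in parental cells. ROBO4 was at 12.8, 15.6 and 15.0 FPKM in resistant replicates 1 to 3, against 0.0258, 0.0532 and 0.0255 FPKM in parental ones, whereas EGFL7 fell (log2 fold change -1.18). The list summed to 14.5 to 17.6 FPKM in resistant libraries and 1.71 to 2.26 FPKM in parental libraries, most of it ROBO4 in the resistant ones. Its part in the CDH5 result was not tested.

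CDH2, N-cadherin, the classical cadherin of neural and mesenchymal cells (18:25530930-25757410, minus strand), stayed near 0. It was at 0.0598, 0.0856 and 0.0850 FPKM in resistant replicates 1 to 3, against 0.116, 0.0381 and 0.0479 FPKM in parental ones. The groups overlapped, with the highest value in parental replicate 1. Of 5 markers of glia and neurons, cells in which N-cadherin is abundant, 2 were tested: GFAP rose (log2 fold change 0.66) and TUBB3 fell (-3.85). CDH6, K-cadherin, a type II cadherin of kidney (5:31193857-31329253, plus strand), did not exceed 0.00191 FPKM and was at 0 in 1 resistant and 2 parental libraries. CDH13 encodes T-cadherin, which is held by a lipid anchor and has no tail for catenins (16:82660408-83830204, plus strand). It was at 0.00943, 0.0176 and 0.0145 FPKM in resistant replicates 1 to 3, against 0.00280, 0 and 0.00105 FPKM in parental ones. The CDH13 groups did not overlap, but both lay so low that no fold is given.

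**Figure D2:**
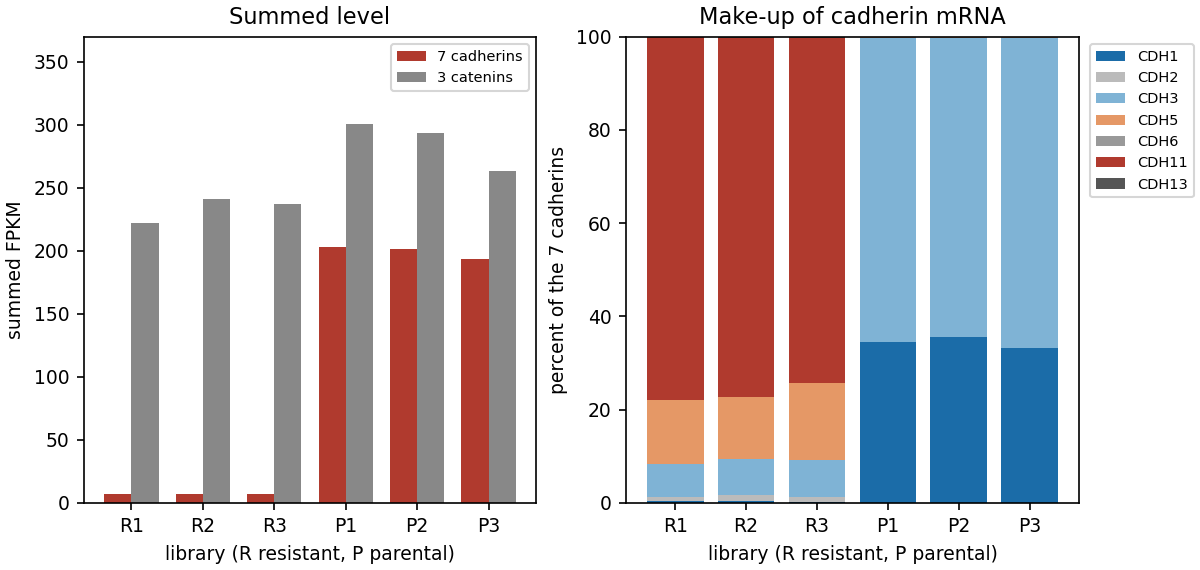
Left, summed FPKM of the 7 cadherins and of the 3 catenins in each library. Right, percent of the summed cadherin FPKM taken by each cadherin. Cadherins summed to 7.22 to 7.40 FPKM in resistant libraries and 193 to 203 FPKM in parental libraries. CDH11 held the largest share in resistant libraries, and CDH3 and CDH1 held nearly all of it in parental libraries.

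Because FPKM is per length, the 7 cadherins may be summed, with the same limit on lengths. The sum was 7.22, 7.30 and 7.40 FPKM in resistant replicates 1 to 3, against 203, 201 and 193 FPKM in parental ones. The 3 catenins summed to 222, 241 and 238 FPKM in resistant replicates 1 to 3, against 301, 293 and 263 FPKM in parental ones. Member cadherin mRNA per catenin mRNA was 0.0313 ± 0.00109 in resistant cells and 0.699 ± 0.0317 in parental cells (SD, n = 3 each). Over all 23 numbered cadherin genes of the series table the sum was 14.9 ± 0.982 FPKM in resistant cells and 204 ± 5.45 FPKM in parental cells, and the ratio to catenins 0.0639 ± 0.00366 in resistant cells and 0.717 ± 0.0319 in parental cells. The make-up also differed. In resistant cells CDH11 took 76.3 ± 1.92% of the FPKM of the 7 cadherins, CDH5 14.5 ± 1.66% and CDH3 7.57 ± 0.476%. In parental cells CDH3 took 65.3 ± 1.14% and CDH1 34.4 ± 1.12%, with the other 5 under 1% together in each library.

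The catenins stayed abundant in both groups. CTNNA1, alpha-E-catenin (5:137946656-138270723, plus strand), was at 104, 117 and 110 FPKM in resistant replicates 1 to 3, against 126, 124 and 112 FPKM in parental ones. The groups overlapped. The log2 fold change was -0.13 ± 0.0703 (SE, limma adjusted p = 0.12), with a 95% interval from -0.28 to 0.03. It passed with median-of-ratios scaling (limma adjusted p = 0.0481) and without parental replicate 3 (-0.18, limma adjusted p = 0.039), and its sign turned with quantile normalization (0.016, limma adjusted p = 0.771).

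CTNNB1, beta-catenin (3:41236328-41301587, plus strand), was at 78.5, 83.0 and 79.2 FPKM in resistant replicates 1 to 3, against 103, 99.8 and 95.6 FPKM in parental ones. Every resistant library lay below every parental one, a gap of modest size beside those of the cadherins. The log2 fold change was -0.30 ± 0.0600 (SE, limma adjusted p = 0.00051), and -0.18 with quantile normalization. ULK4, which overlaps CTNNB1 on the other strand, was at 2.71 to 3.03 FPKM, far under CTNNB1.

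CTNND1, p120-catenin, which holds cadherins at the membrane (11:57520715-57587018, plus strand), was at 39.7, 40.7 and 48.8 FPKM in resistant replicates 1 to 3, against 71.7, 70.0 and 55.8 FPKM in parental ones. The groups did not overlap, but in each group replicate 3 lay toward the other group. The log2 fold change was -0.60 ± 0.108 (SE, limma adjusted p = 0.00055). The library files also give a coverage value, and coverage per FPKM followed the same replicates. It was 16.4%, 16.5% and 13.9% of the highest ratio of the library in resistant replicates 1 to 3 and 13.7%, 14.1% and 16.2% in parental ones, while for CTNNB1 it was 10.8% in every library. With FPKM rebuilt from coverage by 1 length factor per gene, an alternative added after seeing the data, CTNND1 was at 43.1, 44.2 and 44.9 in resistant replicates 1 to 3, against 64.8, 65.2 and 59.9 in parental ones. The spread was smaller and the log2 fold change was -0.51 (limma adjusted p = 7.8e-07). The readthrough gene TMX2-CTNND1, which shares exons with CTNND1, was listed at 0.547, 0 and 0.615 FPKM in resistant replicates 1 to 3. It was at 0 in each parental library, so the split of reads between it and CTNND1 is uncertain. RP11-691N7.6 also overlaps CTNND1 on the same strand. It was at 0.324 to 0.736 FPKM in resistant libraries and 0.765 to 1.20 FPKM in parental libraries, and its part was not tested.

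**Figure D3:**
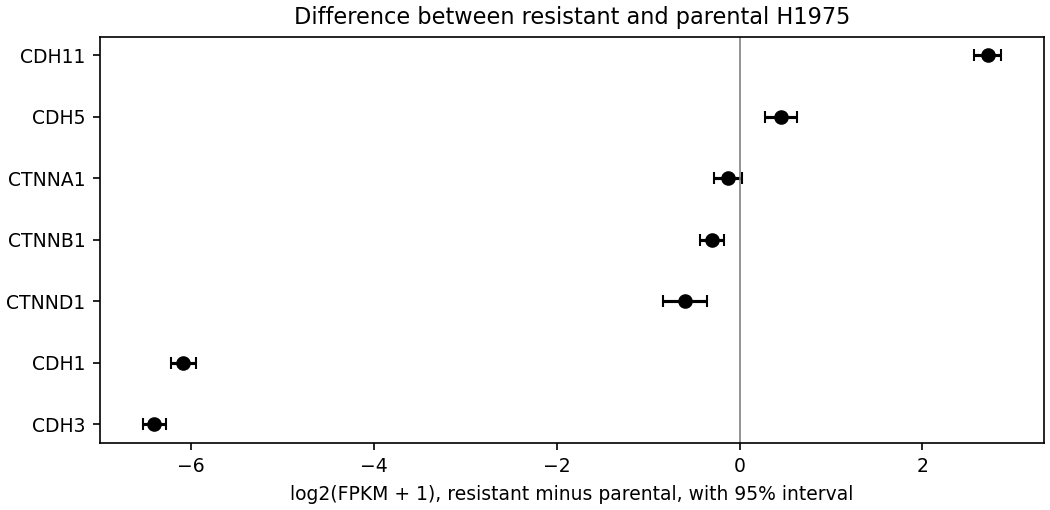
Difference in log2(FPKM + 1) between resistant and parental cells for the 7 tested members, with the 95% interval of limma. The interval of CTNNA1 spans 0, CTNNB1 (-0.30) and CTNND1 (-0.60) lie just below 0, and CDH1 (-6.08) and CDH3 (-6.40) lie far below.

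The order of levels in deposited FPKM differed between the groups. In resistant cells it ran CTNNA1, CTNNB1, CTNND1, CDH11, CDH5, CDH3, CDH2, with no overlap between neighbours, and then CDH1 and CDH13, whose libraries overlapped, and CDH6. In parental cells it ran CDH3, CTNNA1, CTNNB1, CDH1, CTNND1, CDH5, CDH2 and then CDH11, CDH13 and CDH6. There CDH1 and CTNND1 overlapped, as did the last 3, while the other neighbours did not. Coverage per FPKM differed widely between genes. In resistant libraries it averaged 2.50% of the highest ratio for CTNNA1 and 54.4% for CDH3, so an order by coverage could differ.

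CDH1 and CDH3 are neighbours on chromosome 16, transcribed in the same direction with 14608 bases between the end of CDH3 and the start of CDH1. Of the other 13 genes of the series table that start within 500 kb of either, 11 were tested, of which 4 rose and 6 fell with a median log2 fold change of -0.43. Over all tested genes the median was 0.01, with 39.9% higher and 38.1% lower. TANGO6, the next of these genes after CDH1, rose (log2 fold change 0.21), and ZFP90, the next before CDH3, was at 0.10 and did not pass (limma adjusted p = 0.27). The steepest falls were in HAS3, a hyaluronan synthase gene that follows TANGO6 (-3.58), and ESRP2, a splicing regulator of epithelial cells at the start of the window (-3.57). The others that rose were SNTB2 (0.63), PLA2G15 (0.62) and SLC7A6 (0.44), and the others that fell were CHTF8 (-0.56), SLC7A6OS (-0.50), PRMT7 (-0.48) and CIRH1A (-0.43). The immediate neighbours on either side thus differed little between the groups. CDH5, CDH11 and CDH13 lie elsewhere on the same chromosome.

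**Figure D4:**
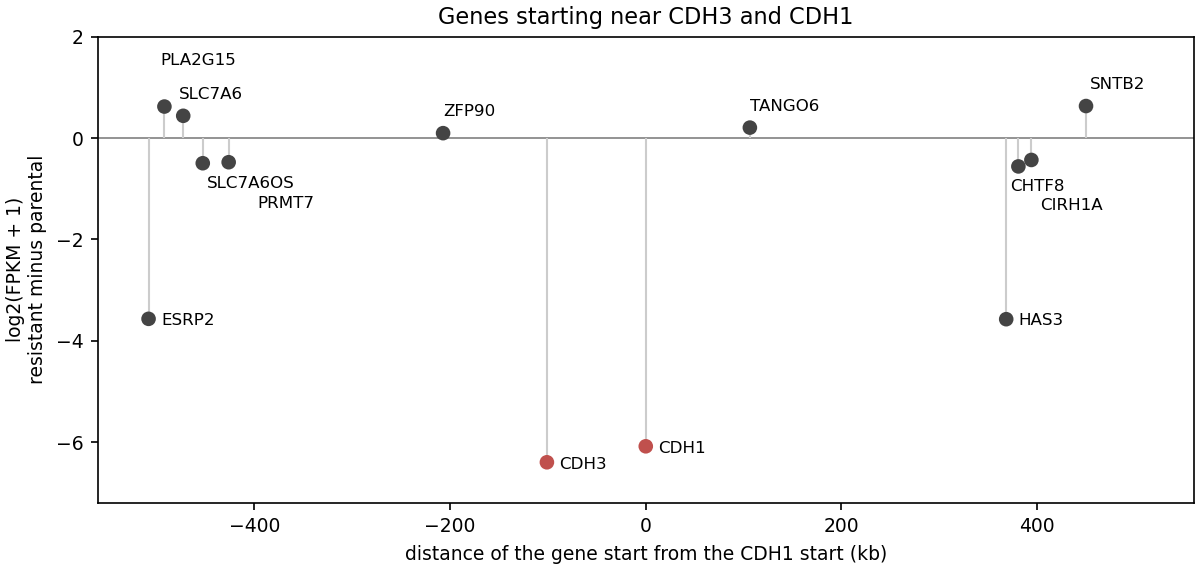
Difference in log2(FPKM + 1) between resistant and parental cells for the tested genes that start within 500 kb of CDH3 or CDH1, against the distance of each gene start from that of CDH1 in kilobases. CDH3 and CDH1 (red) lie between ZFP90 (0.10) and TANGO6 (0.21), which lie near 0.

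Genes with the most similar pattern were sought over the 6 libraries as the smallest Euclidean distance in log2(FPKM + 1), which weighs level as well as difference. For CDH1 they were MAL2, a membrane trafficking protein of epithelial cells (distance 0.62), and LAD1, ladinin (0.79). For CDH3 they were EPCAM, an epithelial adhesion molecule (1.40), and SPINT2, a serine protease inhibitor (1.57). For CDH11 they were ANTXR1, an anthrax toxin receptor (0.14), and AASS, an enzyme of lysine breakdown (0.21).

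Among numbered CDH genes outside the members CDH24 carried most of the mRNA, and other kinds of cadherin gene were not summed. Among 15 other cadherin genes listed only CDH24 was tested, 4 were at 0 in every library and 14 were under 1 FPKM throughout. CDH24, a type II cadherin, was at 6.47, 6.73 and 8.12 FPKM in resistant replicates 1 to 3, against 4.86, 4.76 and 4.21 FPKM in parental ones. The groups did not overlap, and the log2 fold change was 0.53 ± 0.0847 (SE, limma adjusted p = 9.5e-05). Over the 23 numbered cadherin genes of the series table CDH24 took 45.5% to 50.6% of FPKM in resistant libraries and 2.12% to 2.33% in parental libraries. CDH11 took 34.2% to 39.6% in resistant libraries on this wider base, less than CDH24 in each.

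Of 8 other catenins and relatives 5 were tested, of which 2 rose and 3 fell, with a median log2 fold change of -0.64. Beside them 39.9% of all tested genes rose and 38.1% fell. JUP, plakoglobin, which can take the place of beta-catenin on the cadherin tail, was at 18.6, 14.2 and 33.8 FPKM in resistant replicates 1 to 3, against 62.8, 59.7 and 61.2 FPKM in parental ones. The resistant libraries lay below and varied widely (log2 fold change -1.51 ± 0.341 SE, limma adjusted p = 0.013). EIF1 overlaps JUP on the other strand, and its part in the JUP values was not tested. The annotated JUP gene (17:39775692-39943183) also spans KRT17 on the same strand. KRT17 was at 38.3, 42.0 and 33.1 FPKM in resistant replicates 1 to 3, against 0.277, 0.0565 and 0.587 FPKM in parental ones, and its part in the JUP values was not tested. JUP coverage per FPKM was 8.50%, 9.28% and 8.005% of the highest ratio in resistant replicates 1 to 3, against 11.5%, 11.4% and 11.4% in parental ones. PKP4, a p120 relative, also fell (-0.72). The smaller of the 2 rises was that of CTNNAL1, an alpha-catenin relative (0.14). FAM206A overlaps CTNNAL1 on the other strand, so this small rise is uncertain.

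Nectins are the other adhesion receptors of adherens junctions. Of 16 nectins and actin linkers, all tested, 5 rose and 9 fell, with a median of -0.34. The share over all tested genes was 39.9% higher and 38.1% lower. Of the 4 nectins 2 rose, 1 fell and 1 did not pass. PVRL3, nectin 3, was at 11.2, 11.2 and 12.1 FPKM in resistant replicates 1 to 3, against 0.197, 0.161 and 0.151 FPKM in parental ones (log2 fold change 3.42), and PVRL2, nectin 2, rose as well (1.70). PVRL4, nectin 4, was at 0.0119, 0.0537 and 0.0365 FPKM in resistant replicates 1 to 3, against 5.45, 4.54 and 5.77 FPKM in parental ones (-2.59). PVRL1, nectin 1, was at 7.07 to 8.71 FPKM in resistant libraries and 7.27 to 7.89 FPKM in parental libraries, and the groups overlapped. PLEKHA7, which links p120-catenin to microtubules at the junction, fell by 2.99 on the log2 scale. RP11-466H18.1 overlaps it on the same strand.

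Of 15 phosphatases, proteases and trafficking proteins that act on cadherins 14 were tested, with 8 higher and 3 lower and a median of 0.22. Over all tested genes 39.9% were higher and 38.1% lower, with a median of 0.01. The receptor phosphatase gene PTPRM (log2 fold change 1.83) and the glycosyltransferase gene MGAT5 (1.28) rose most. CBLL1, a ubiquitin ligase of E-cadherin (-0.64), and ARF6, a GTPase of endocytosis (-0.52), fell most. AC002467.7 overlaps CBLL1 on the other strand. All 8 genes of p120-catenin partners were tested, with 3 higher and 3 lower and a median of 0.04. The kinase genes FYN (2.35) and FER (0.21) rose, and VAV2, a guanine nucleotide exchange factor (-0.94), and RAC1, a small GTPase of the actin cytoskeleton (-0.55), fell.

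**Figure D5:**
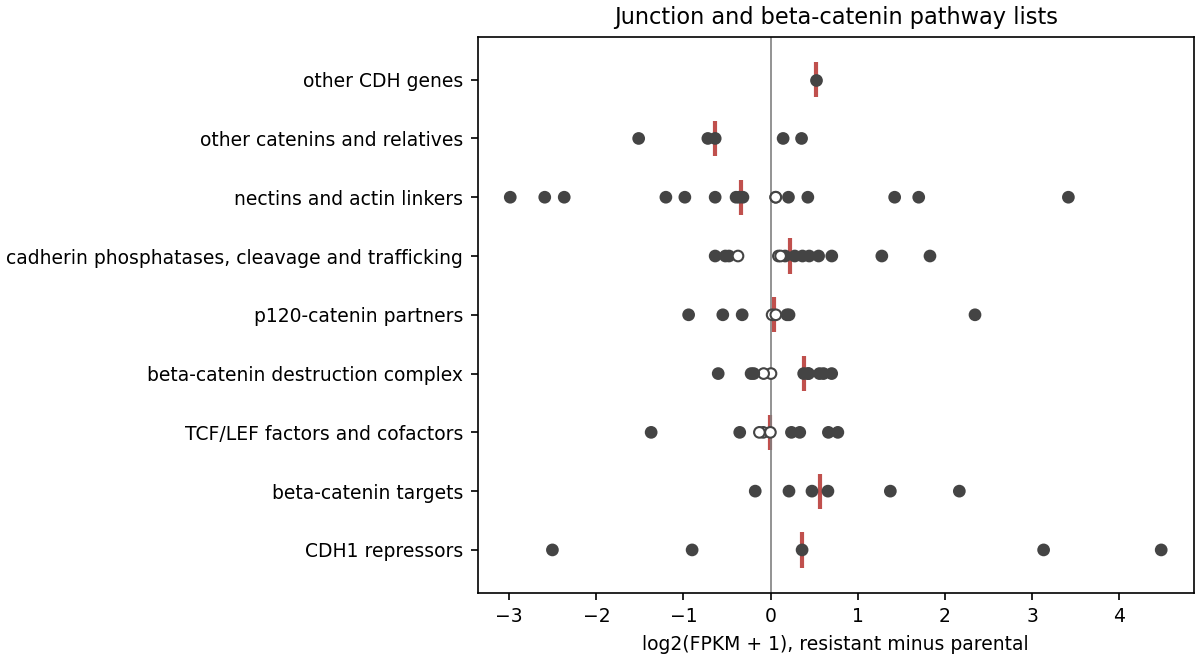
Difference in log2(FPKM + 1) between resistant and parental cells for the tested genes of 9 lists. Filled points passed the test, open points did not, and the red bar is the median of the list. The nectins and actin linkers run from -2.99 (PLEKHA7) to 3.42 (PVRL3), and the destruction complex stays between -0.60 (GSK3B) and 0.70 (APC).

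On the side of beta-catenin signalling changes were small in the destruction complex, which marks beta-catenin for degradation. All 11 genes were tested, 6 rose and 3 fell, with a median of 0.38 and none past 1 on the log2 scale in either direction. Over all tested genes 39.9% rose and 38.1% fell, and 9.95% rose and 9.39% fell by at least 1. The scaffold gene APC (log2 fold change 0.70) and FBXW11, a receptor of the ubiquitin ligase (0.61), rose most. The kinase gene GSK3B (-0.60) and TNKS2, a tankyrase (-0.22), fell most. SRP9P1 overlaps TNKS2 on the other strand. Of 10 TCF and LEF factors and cofactors 9 were tested, 4 rose and 2 fell, with a median of 0.00. BCL9, a beta-catenin cofactor (0.77), and TCF7L1 (0.66) rose most, and TCF7 (-1.37) and the corepressor gene CTBP1 (-0.35) fell. SKP1 overlaps TCF7 and CTBP1-AS2 overlaps CTBP1 on the other strand.

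Of 14 beta-catenin targets 6 were tested, of which 5 rose and 1 fell, with a median of 0.57. AXIN2 and SP5 entered the test through the resistant libraries alone. Their rise, and with it the balance and median of the list, followed in part from the filter. DKK1 was called higher though its groups overlapped. Over all tested genes 39.9% rose and 38.1% fell, with a median of 0.01. AXIN2, a feedback inhibitor and target of the pathway, was at 1.66, 1.54 and 1.90 FPKM in resistant replicates 1 to 3, against 0.0444, 0.0245 and 0.0533 FPKM in parental ones. The groups did not overlap (log2 fold change 1.37 ± 0.0737 SE, limma adjusted p = 3.4e-09). MYC rose as well (2.17). The ratio of mean FPKM was 41.8 for AXIN2 and 4.56 for MYC, so their order depends on the pseudocount. ZNRF3, a feedback inhibitor of WNT receptors, fell (-0.18). The other 8 targets were under 1 FPKM in every library. Among them NKD1, NKD2, RNF43 and TNFRSF19 had every resistant library below every parental one, NOTUM had every one above, and the other 3 overlapped. All tested genes had such groups in 39.0% of cases below and 40.8% above, shares not computed for genes too low to test.

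Repressors of CDH1 moved apart. Of 11 genes 5 were tested, with 3 higher and 2 lower and a median of 0.36, where 39.9% of all tested genes were higher and 38.1% lower. The zinc finger repressor genes ZEB1 (log2 fold change 4.48) and ZEB2 (3.13) rose, and SNAI1 (-2.50) and SNAI2 (-0.90) fell. ZEB1 and ZEB2 entered the test through the resistant libraries alone, so their rise followed in part from the filter. Among genes too low to test, KLF8 had every resistant library below every parental one, and FOXC2 had every one above. ZEB1-AS1 overlaps ZEB1 on the other strand. TWIST1 and TWIST2 were at or near 0 in every library.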

How the data were processed

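Total RNA of 3 resistant and 3 parental libraries was sequenced, with groups taken from the sample titles. The submitters' processing notes name the build GRCh37 and the tool DESeq, without versions or roles. Which aligner and quantification tool were used, and whether strand was, is not given in the sources used here. FPKM were deposited by the authors in a series table, and per the file headers the library files add coordinates, a coverage signal and TPM. Each column of that table belongs to 1 library. For 1 to 4 genes in a library, the FPKM of table and library file were over 1e-05 apart.

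No read counts were used, so limma 3.58.1 in R 4.3.3 was fitted to log2(FPKM + 1) with a group term alone, using a trended and robust prior and two-sided tests. Fold changes are resistant minus parental on this scale, where the pseudocount shrinks differences of low genes. A gene that averaged under 1 FPKM in 1 group entered the test through the other group alone. A difference in such a gene followed in part from the filter. An exact 0 can be a failed estimate. The scripts were tested on simulated data. Coverage was divided by FPKM and set against the highest such ratio of the library. The notes do not define coverage. In resistant libraries this ratio averaged 6.53% of the highest for CDH11 and 47.4% for CDH5. Sums, shares and orders across genes thus hold for the deposited FPKM only.

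Members and lists were chosen with earlier results of these data known. For the 9 gene lists, 108 of 108 genes were found by symbol or older symbol. From each list the 2 largest rises and the 2 largest falls among genes that passed were named, with all tested genes within 500 kb of CDH3 or CDH1 and the 2 genes nearest in pattern to members that changed by at least 1, except for 1 gene of the list of catenin relatives, a rise, which is not reported here. Other genes were named after their values were seen. Alternatives were other pseudocounts, filters, scalings, TPM, a replicate block and leaving out each library. Coordinates are 1-based, from the deposited files, and a gene start is its lower coordinate on either strand. Protein and promoter sequences are not used here.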

Additional observations from a re-analysis of the deposited data

Results flagged for a closer look

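AC015933.2, a gene outside the series table that overlaps CDH2 on the other strand, was above its level in parental libraries in every resistant library. It was at 0.681, 1.13 and 1.12 FPKM in resistant replicates 1 to 3, against 0.116, 0.0914 and 0.0790 FPKM in parental ones. CDH2 itself overlapped between the groups, and the difference of AC015933.2 was not tested.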

How the results depend on the processing

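Over all genes 9448 passed, and the count stayed within 1.5 times of that in every alternative, from 8217 when 1 FPKM was required in both groups to 11014 without a filter. Of the members 6 passed, 2 higher and 4 lower. With 1 FPKM required in both groups only the catenins could be tested, and 2 passed, 0 higher and 2 lower, since fewer genes were tested. Leaving out 1 library gave 5 to 7 members, 1 to 2 higher and 4 to 5 lower: CDH5 was not tested without resistant replicate 3, and CTNNA1 passed without parental replicate 3. CTNNA1 also passed with median-of-ratios scaling (-0.13, limma adjusted p = 0.0481) and reversed with quantile normalization (0.016), and the cause was not tested. CDH1, CDH3, CDH11, CTNNB1 and CTNND1 kept direction and call wherever they were tested. Same-numbered libraries had correlations of deviations from the group means of -0.14, 0.076 and 0.099, so the numbers give no pairing, and a fit with the replicate block called 9422 genes and 6 members, 2 higher and 4 lower. No counting error can be given without reads, which limits what can be said of CDH2, CDH6 and CDH13.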

Other observations

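Among the 14 other listed cadherin genes too low to test, 3 had groups that did not overlap, and they were named after their values were seen. Groups did not overlap in 79.8% of all tested genes, and the share among genes too low to test was not computed. CDH18, a type II cadherin of the nervous system, was at 0.119, 0.176 and 0.156 FPKM in resistant replicates 1 to 3 and listed at 0 in each parental library. CDH4, R-cadherin, was at 0.0238, 0.00638 and 0.0164 FPKM in resistant replicates 1 to 3, against 0.0807, 0.0818 and 0.0832 FPKM in parental ones. CDH26 was at 0.226, 0.155 and 0.181 FPKM in resistant replicates 1 to 3, against 0.283, 0.266 and 0.366 FPKM in parental ones.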
